A study of Arabidopsis thaliana with 4 samples.

Results

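The plastid genome of Arabidopsis thaliana carries the genes for a core set of subunits of the photosynthetic machinery, and the transcripts of 43 of these genes were compared between css1 mutant and wild-type (WT) seedlings. The genes are those of the plastid genome whose symbols begin with psa (photosystem I), psb (photosystem II), pet (cytochrome b6f complex), atp (ATP synthase) or ndh (NDH complex), together with rbcL of Rubisco. The rule used no measured value. Of 44 such gene symbols in the reference annotation, 43 had a probe set assigned to a single gene, which makes 43 of the 22746 probe sets tested. The exception was ndhB, which lies in both copies of the inverted repeat, so that its probe set carries more than 1 gene ID.

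Whole seedlings were harvested at 9 days after growth in continuous light of 80 µmol photons per square metre per second on B5 agar (0.8%) with 2% sucrose. The groups were css1 mutant seedlings, with 2 arrays, and WT seedlings of the Columbia accession, with 2 arrays, each array made from an independent biological RNA sample. The labels give neither the allele nor the affected gene of css1. The mutant has been described as impaired in a nuclear maturase that acts on a mitochondrial intron and as altered in carbon metabolism. How many seedlings were pooled per sample is not given in the sources used here.

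As background, the thylakoid membrane holds photosystem II, which splits water, the cytochrome b6f complex, which passes electrons on and pumps protons, photosystem I, which reduces ferredoxin, and an ATP synthase driven by the proton gradient. The NDH complex returns electrons from ferredoxin to the membrane in cyclic flow, and Rubisco fixes carbon dioxide in the stroma. Each of these complexes is a mosaic of plastid-encoded and nuclear-encoded subunits. Plastid genes lie in clusters that are often transcribed together and then cut, spliced, edited and trimmed by nuclear-encoded proteins, so transcripts of 1 cluster can accumulate to unlike levels. In green tissue most genes of the photosystems are transcribed by a bacterial-type plastid polymerase.

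All values are log2 signals computed by the authors with the array summary method RMA, so a difference of 1 is a 2-fold change. Array medians over all probe sets lay between 6.32 and 6.33 in css1 and between 6.36 and 6.37 in WT, and the correlation between arrays was 0.997 within css1, 0.996 within WT and 0.982 to 0.986 between genotypes. Differences were tested in limma, a linear model that pools the spread over probe sets, and a gene passed where its p, adjusted after Benjamini and Hochberg for all 22746 probe sets, was under 0.05. The median standard error of a difference was 0.10 over all probe sets and 0.14 over the 43 genes. Labelling of this kind usually starts from poly(A) tails, which most plastid transcripts lack. What share of the plastid RNA was labelled is not given in the sources used here, so the signals hold for the labelled RNA. A control probe set for the nuclear-encoded 25S ribosomal RNA had 11.87 and 11.98 in css1, against 11.33 and 11.57 in WT. Its part in the results below was not tested. The 3′ minus 5′ signal of the actin control, a sign of RNA integrity, was 2.57 and 2.61 in css1, against 2.49 and 2.49 in WT. That of GAPDH was 0.06 and 0.33 in css1, against 0.16 and 0.29 in WT, and that of ubiquitin 1.26 and 1.25 in css1, against 1.24 and 1.20 in WT. The poly(A) control RNAs had a median of 5.41 and 5.41 in css1, against 5.06 and 5.30 in WT, and their part in the results was not tested either.

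More plastid photosynthesis genes passed as lower than as higher in css1, and the higher ones were no larger a share than over all probe sets. Of the 43 genes, 11 passed, with 3 higher and 8 lower in css1, where 7.63% of all probe sets passed as higher and 8.01% as lower (15.6% together). At an unadjusted p under 0.05, 14 of the 43 counted, 3 higher and 11 lower, against 31.7% of all probe sets. The 3 higher genes were psbK and psbI, for small subunits of photosystem II, and atpA, for the alpha subunit of ATP synthase. The 8 lower genes were psbA, psbD, psbE and psbF of the photosystem II core, petN of the cytochrome b6f complex, and ndhG, ndhJ and ndhK of the NDH complex. The highest difference was 0.75 and the lowest −1.02. The 43 genes had a median difference of −0.28, against −0.03 over all probe sets, and 34 of the 43 differences were below 0, as were 55.1% of all differences. Both css1 values lay below both WT values for 19 genes (33.4% of all probe sets) and above them for 4 (26.6% of all probe sets), so the genotypes did not overlap for 23 of the 43, against 60.0% of all probe sets. Because whole seedlings were sampled, less labelled plastid RNA per green cell and fewer green cells cannot be told apart. Nor can less plastid RNA be told from a smaller labelled share of it.

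**Figure D1:**
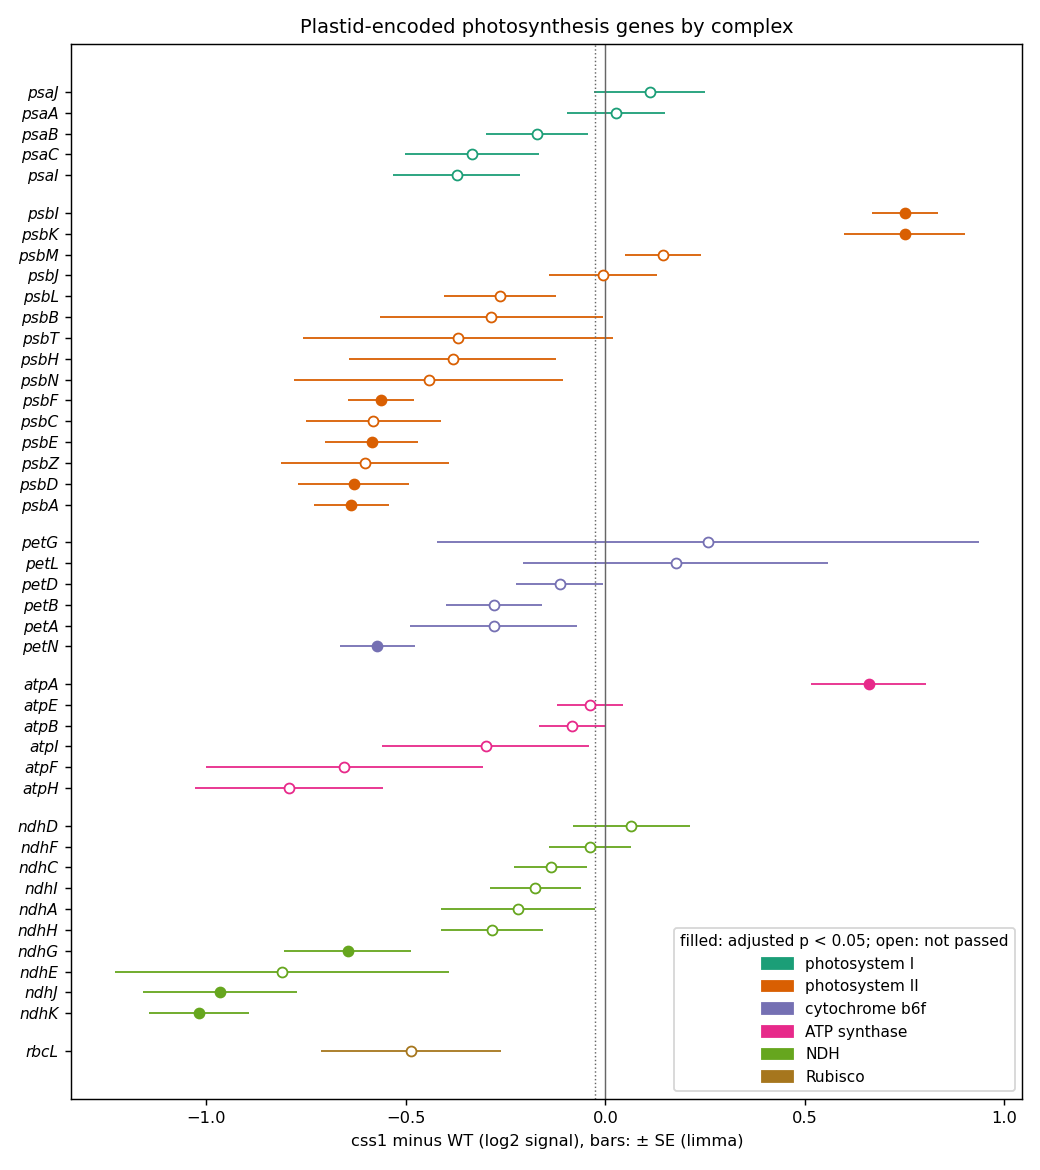
Difference between css1 and WT in log2 signal (horizontal axis) for each of the 43 genes (vertical axis), grouped by complex, with the limma standard error as a bar; filled points passed and the dotted line is the median of all probe sets. Most points lie left of 0, with psbI, psbK and atpA standing to the right at 0.66 to 0.75 and ndhJ and ndhK farthest left.

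These calls rest on 2 arrays per genotype and most depended on both css1 arrays. Without css1 replicate 1, 0 genes passed as higher and 3 as lower in limma, with 3 higher and 24 lower at an unadjusted p under 0.05 (10.01% and 12.1% of all probe sets in that setting). The lower genes that passed were then ndhK, ndhE and psbT. Without css1 replicate 2, 0 passed in either direction in limma, with 4 higher and 10 lower at an unadjusted p under 0.05 (9.87% and 10.6% of all probe sets). Over all probe sets the number passing fell to 659 and 560 in these settings, which leave 1 css1 array and take the spread from the WT arrays, against 3559 with all arrays. The median difference of the 43 genes was −0.46 without css1 replicate 1 and −0.13 without css1 replicate 2. It was −0.250 without WT replicate 1 and −0.245 without WT replicate 2. None of the 11 genes that passed changed direction in any setting. Leaving out 1 array could not have changed it, since the genotypes did not overlap for these genes.

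Photosystem II has the most plastid-encoded members, 15, and these split between a pair of rising genes and a larger group with lower signal. Of the 15, 2 rose and 4 fell (40% together, against 15.6% of all probe sets), and 9 did not pass. The median difference was −0.38. The reaction centre gene psbA, for the D1 protein that binds the primary donor and is replaced during light damage, had 9.42 and 9.36 in css1, against 10.10 and 9.96 in WT. Its partner psbD, for the D2 protein, had 6.96 and 6.81 in css1, against 7.69 and 7.34 in WT. Both genes were lower on each css1 array than on either WT array. The signal of psbA fell by 35.7% (log2 difference −0.64, SE 0.09, adjusted p = 0.0127). That of psbD fell by 35.4% (−0.63, SE 0.14, adjusted p = 0.0350). With 1 array left out at a time, the difference of psbA stayed between −0.71 and −0.57 (adjusted p = 0.0256 to 0.104) and that of psbD between −0.81 and −0.46 (adjusted p = 0.0256 to 0.193), with psbA not passing without either css1 array and psbD not passing without WT replicate 1 either.

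Cytochrome b559 is the small haem protein beside the reaction centre, and both its subunit genes fell. The alpha subunit gene psbE had 10.86 and 10.89 in css1, against 11.32 and 11.60 in WT, and the beta subunit gene psbF had 11.65 and 11.67 in css1, against 12.21 and 12.24 in WT. For both genes the css1 arrays differed by less than 0.05 from each other and lay below WT. The differences were −0.59 for psbE (SE 0.12, adjusted p = 0.0263) and −0.56 for psbF (SE 0.08, adjusted p = 0.0127). Leaving out 1 array at a time gave −0.72 to −0.45 for psbE and −0.58 to −0.55 for psbF. Neither passed without css1 replicate 1 (adjusted p = 0.140 and 0.0928) or css1 replicate 2 (adjusted p = 0.144 and 0.0986), nor did psbE without WT replicate 2 (adjusted p = 0.0588).

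The 2 photosystem II genes that rose encode small membrane subunits. Signals of psbI were 10.40 and 10.43 in css1, against 9.66 and 9.67 in WT, so the arrays of each genotype differed by less than 0.05 and the genotypes by 0.75 (SE 0.08, adjusted p = 0.00616), a rise of 68.4%. Its neighbour psbK had 10.36 and 9.96 in css1, against 9.32 and 9.50 in WT, a difference of 0.75 (SE 0.15, adjusted p = 0.0281). Every css1 value of both genes lay above every WT value. With 1 array left out, psbI kept a difference of 0.73 to 0.77 and did not pass without css1 replicate 1 (adjusted p = 0.0528) or css1 replicate 2 (adjusted p = 0.0641). The difference of psbK ranged from 0.55 to 0.95 and did not pass without any single array (adjusted p = 0.0509 to 0.116).

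The antenna genes of the core did not pass. The gene psbC, for the chlorophyll protein CP43, had 9.93 and 9.44 in css1, against 10.31 and 10.21 in WT (−0.58, adjusted p = 0.0714), and its neighbour psbZ, for a small subunit, differed by −0.60 (adjusted p = 0.114). These differences are close in size to that of psbD, whose coding sequence overlaps the start of psbC. For psbB, the gene of the chlorophyll protein CP47, css1 gave 6.15 and 5.24, against 5.94 and 6.02 in WT, so the css1 arrays lay on both sides of WT (−0.29, SE 0.28, adjusted p = 0.548). Of the remaining small subunits, psbH, psbL and psbT differed by −0.38, −0.26 and −0.37, psbJ by −0.01 and psbM by 0.14, with adjusted p from 0.262 to 0.984. The gene psbN, which is read from the opposite strand within the psbB cluster and serves the assembly of photosystem II, differed by −0.44 (adjusted p = 0.433).

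**Figure D2:**
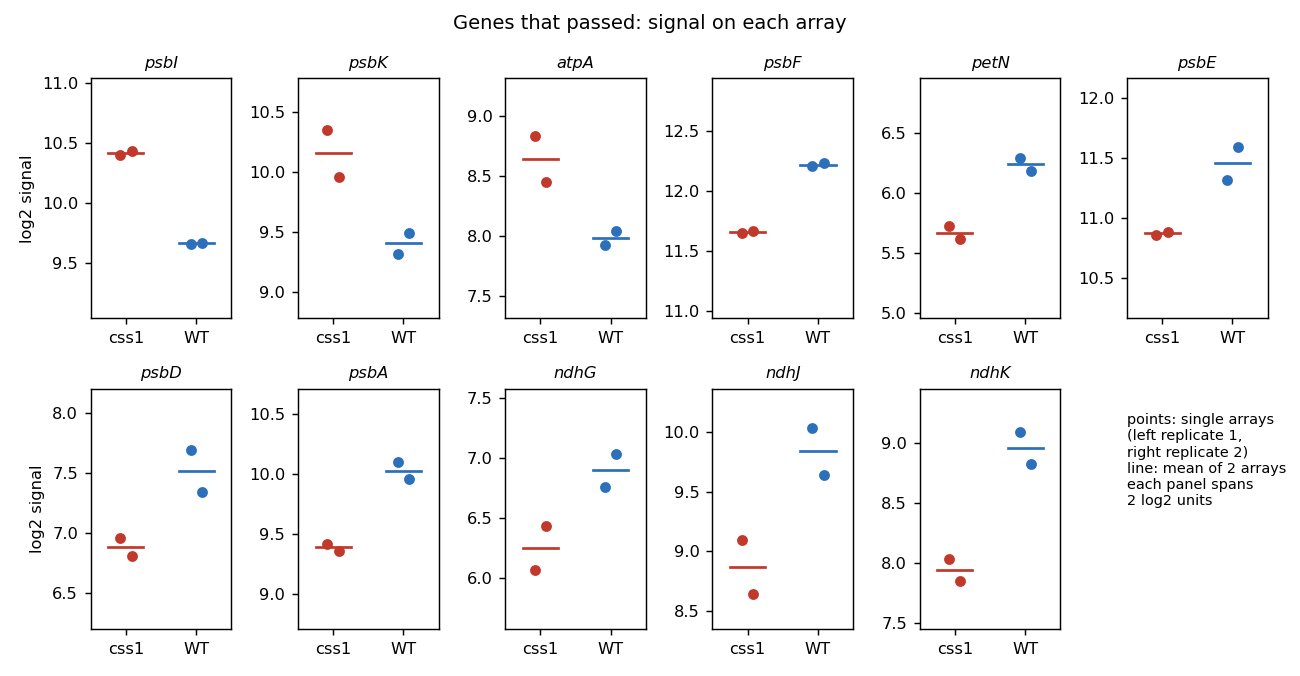
Log2 signal (vertical axis, 2 log2 units per panel) of the 11 genes that passed, with css1 on the left and WT on the right; points are single arrays and lines the mean of 2 arrays. In each panel both css1 points lie on the same side of both WT points, and the css1 points of psbI, psbE and psbF nearly coincide.

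Photosystem I members showed no difference that passed: 0 of 5 in limma, and 0 of 5 at an unadjusted p under 0.05. Over all probe sets these shares were 15.6% and 31.7%. The median of the 5 was −0.17. The reaction centre genes psaA and psaB, whose proteins together hold the primary donor P700, had differences of 0.03 (adjusted p = 0.920) and −0.17 (adjusted p = 0.420). Signals of psaA were 7.003 and 6.70 in css1, against 6.84 and 6.80 in WT. Those of psaB were 12.87 and 12.54 in css1, against 12.91 and 12.84 in WT. The genotypes thus overlapped for both genes. Among the small subunits, psaI had 10.34 and 9.93 in css1, against 10.61 and 10.40 in WT (−0.37, adjusted p = 0.178), and psaJ had 8.69 and 9.02 in css1, against 8.85 and 8.65 in WT (0.11, adjusted p = 0.647). The gene psaC, for the subunit that carries the terminal iron-sulphur clusters, gave a low signal of 3.29 and 3.31 in css1, against 3.38 and 3.88 in WT (−0.34, adjusted p = 0.239). Its mean lay under 4.73, the 30th percentile of all probe sets, as did those of petD, ndhF and ndhH, and a difference in such a gene may be understated.

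In the cytochrome b6f complex, 1 of 6 genes fell and 5 did not pass, with a median of −0.20. The share that passed, 16.7%, was near the 15.6% of all probe sets. The gene that fell was petN, for a small subunit needed for a stable complex, with 5.72 and 5.61 in css1, against 6.29 and 6.19 in WT. The genotypes did not overlap, and the difference was −0.57 (SE 0.09, adjusted p = 0.0165), or −0.63 to −0.52 with 1 array left out. It did not pass without css1 replicate 1 (adjusted p = 0.0818) or css1 replicate 2 (adjusted p = 0.127). The large subunit genes petA for cytochrome f, petB for cytochrome b6 and petD for subunit IV differed by −0.28 (adjusted p = 0.425), −0.28 (adjusted p = 0.178) and −0.11 (adjusted p = 0.534). For petA, css1 had 10.15 and 9.50, against 10.14 and 10.07 in WT, so the difference came from css1 replicate 2 alone and was 0.05 without it. The small subunit genes petG and petL were among the genes with the widest spread. Signals of petG were 6.73 and 4.63 in css1, against 5.89 and 4.95 in WT (0.26, SE 0.68), and those of petL were 7.25 and 6.17 in css1, against 6.87 and 6.20 in WT (0.18, SE 0.38). Within each genotype the arrays of petG and petL differed by more than the genotypes did.

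Among the ATP synthase genes 1 of 6 rose (16.7%, near the 15.6% of all probe sets that passed), and the other 5 did not pass. The soluble head of the enzyme holds the alpha, beta and epsilon subunits that the plastid encodes, and the membrane part holds the subunits encoded by atpF, atpH and atpI. The alpha subunit gene atpA had 8.84 and 8.45 in css1, against 7.93 and 8.05 in WT, a rise of 58.0% with no overlap (0.66, SE 0.14, adjusted p = 0.0340). Its difference was 0.47 to 0.85 with 1 array left out, and it did not pass without any single array (adjusted p = 0.0546 to 0.135). The median difference of the 6 genes was −0.19. The beta subunit gene atpB and the epsilon subunit gene atpE, which overlap, were close to level between genotypes. Signals of atpE were 13.55 and 13.54 in css1, against 13.58 and 13.59 in WT (−0.04, adjusted p = 0.805), and atpB differed by −0.08 (adjusted p = 0.550). Like psbM, both lay within 0.86 log2 units of the highest signal on every array, where a real difference can be compressed.

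The membrane part of the ATP synthase is encoded just beyond atpA in the same gene cluster, in the order atpF, atpH and atpI. The gene atpH, for the subunit of the rotor ring, had 8.16 and 7.59 in css1, against 8.92 and 8.43 in WT, so both css1 values were below WT (−0.79, SE 0.24, adjusted p = 0.0757). For atpF, a stator subunit gene with an intron, css1 gave 5.58 and 4.85, against 6.31 and 5.42 in WT, which overlap (−0.65, SE 0.35, adjusted p = 0.262). The difference of atpI was −0.30 (adjusted p = 0.494). As a ratio within an array, which does not depend on scaling between arrays, atpA over atpF had log2 values of 3.26 and 3.60 in css1, against 1.61 and 2.62 in WT. This ratio was 1.31 higher in css1, with no overlap. It was chosen after the single values were seen and was not tested.

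The largest falls of single genes were those of ndhK and ndhJ in the NDH complex. Of its 10 genes, 3 fell (30%, against 15.6% of all probe sets that passed in either direction) and 7 did not pass. The median of the complex was −0.25, against −0.28 over the 43 genes. Of its 10 differences 9 were below 0, as were 34 of the 43 and 55.1% of all differences. The gene ndhK, for a subunit of the peripheral arm that carries electrons, had 8.03 and 7.85 in css1, against 9.09 and 8.82 in WT. Its neighbour ndhJ, for another subunit of that arm, had 9.10 and 8.65 in css1, against 10.03 and 9.64 in WT. Both genes were lower on each css1 array than on either WT array. The signal of ndhK fell by 50.6% (−1.02, SE 0.13, adjusted p = 0.00811). That of ndhJ fell by 48.8% (−0.97, SE 0.19, adjusted p = 0.0271). With 1 array left out, ndhK had −1.15 to −0.88 and did not pass without css1 replicate 2 (adjusted p = 0.0687). The difference of ndhJ ranged from −1.19 to −0.74, and it did not pass without css1 replicate 1 (adjusted p = 0.0562), css1 replicate 2 (adjusted p = 0.138) or WT replicate 1 (adjusted p = 0.0729).

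The third gene of that cluster, ndhC, for a membrane subunit, had 11.57 and 11.70 in css1, against 11.74 and 11.80 in WT (−0.14, SE 0.09, adjusted p = 0.372). The log2 ratio of ndhK to ndhC was −3.54 and −3.85 in css1, against −2.65 and −2.98 in WT, so it was 0.88 units lower in css1 (a difference of −0.88) without overlap. This ratio, too, was picked after the values were seen and was not tested. In the other large ndh cluster, ndhG, for a membrane subunit, had 6.07 and 6.44 in css1, against 6.76 and 7.04 in WT (−0.65, SE 0.16, adjusted p = 0.0466). It passed narrowly, and did not pass without any single array (adjusted p = 0.0510 to 0.201) or with each array centred on its median. Next to it ndhE gave 5.77 and 4.41 in css1, against 6.07 and 5.73 in WT (−0.81, SE 0.42, adjusted p = 0.252), so its difference rested on css1 replicate 2 and was −0.13 without that array. The differences of ndhA, ndhI and ndhH, from the same cluster, were −0.22, −0.18 and −0.28 (adjusted p = 0.196 to 0.499). Signals of ndhD were 7.56 and 7.56 in css1, against 7.29 and 7.70 in WT (0.07, adjusted p = 0.816), and the low signals of ndhF were 3.26 and 3.05 in css1, against 3.17 and 3.21 in WT (−0.04, adjusted p = 0.848).

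The large subunit gene of Rubisco, rbcL, had 10.28 and 9.63 in css1, against 10.59 and 10.30 in WT. Both css1 values were below WT, the upper one by a margin of less than 0.02, and the difference of −0.49 (SE 0.23) did not pass (adjusted p = 0.207). It was −0.81 without css1 replicate 1 and −0.16 without css1 replicate 2.

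Set out in the order of the genes on the plastid genome in the RefSeq annotation of assembly TAIR10.1, the 3 genes that rose were consecutive among the measured genes: psbK, psbI and atpA. The next gene, atpF, had a difference of −0.65 with overlapping genotypes. Among the genes that fell, ndhJ lay beside ndhK and psbF beside psbE, while psbD was followed by psbC and psbZ, which did not pass. On the other side of psbF from psbE lay psbL and then psbJ, with −0.26 and −0.01. The log2 ratio of psbE to psbJ was −0.21 and −0.26 in css1, against 0.39 and 0.31 in WT. This ratio, with a difference of −0.58 without overlap, was chosen after the values were seen and was not tested. Neighbours can share transcripts, so they do not count as separate observations. The strand of the genes was not used here, so being consecutive does not show that genes share a transcript.

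**Figure D3:**
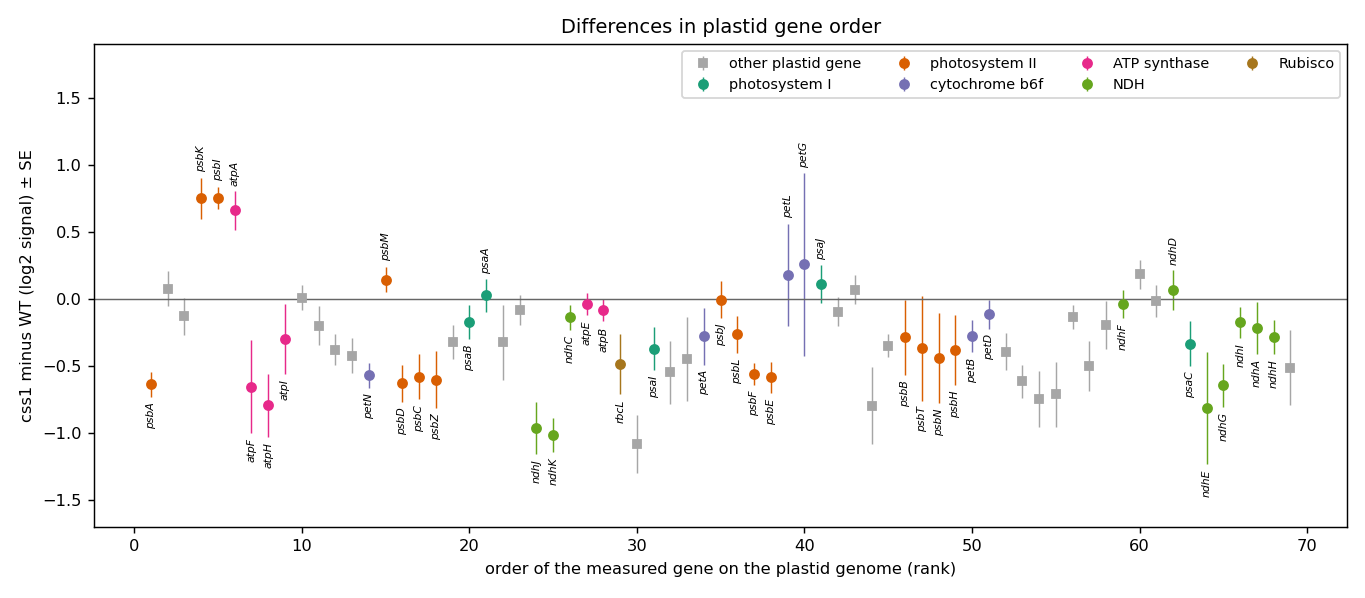
Difference between css1 and WT in log2 signal with its standard error (vertical axis) for the 69 measured plastid genes in genome order (horizontal axis, rank); circles are the photosynthesis genes by complex and grey squares are other plastid genes. The run of psbK, psbI and atpA stands above 0 and is followed by atpF and atpH below it, while ndhJ and ndhK lie near −1 beside ndhC at −0.14.

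The 43 genes varied more between arrays of a genotype than most probe sets did. The css1 arrays differed by over 0.5 log2 units for 14 of the 43 (32.6%), against 1.41% of all probe sets, and the WT arrays did so for 4 of the 43 (9.30%), against 3.18% of all probe sets. The largest css1 gaps were those of petG (2.101), ndhE (1.36), psbT (1.27), petL (1.08), psbN (0.99) and psbB (0.91), each with the higher value in css1 replicate 1. In all, css1 replicate 1 was above css1 replicate 2 for 31 of the 43 genes, against 56.2% of all probe sets. WT replicate 1 was above WT replicate 2 for 23 of the 43, near the 54.6% of all probe sets. Both held for 22 of the 43 genes, against 7095 of all 22746 probe sets. Part of the psbB cluster is an example. Among its genes, psbB, psbT, psbN and psbH differed by −0.44 to −0.29 between genotypes, but by 0.83 to 1.27 between the css1 arrays. All 4 genotype differences were above 0 without css1 replicate 2, from 0.03 for psbH to 0.27 for psbT. The next genes in genome order, petB and petD, had css1 gaps of only 0.22 and 0.03. Without css1 replicate 2 their differences stayed below 0, at −0.17 and −0.10. The 11 genes that passed had css1 gaps of at most 0.45, the gap of ndhJ. A small gap itself helps a gene to pass, so this is no check on the calls.

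**Figure D4:**
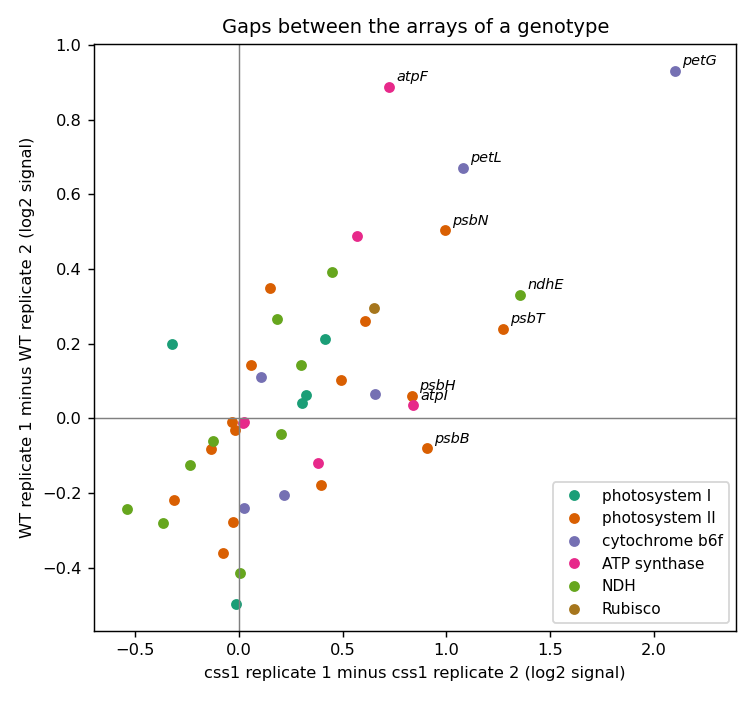
Gap in log2 signal between the css1 arrays (horizontal axis, replicate 1 minus replicate 2) and between the WT arrays (vertical axis, replicate 1 minus replicate 2) for each of the 43 genes, coloured by complex. Most points lie right of 0, and petG stands farthest out at 2.101 and 0.931.

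Few nuclear genes of the same complexes had a named probe set. The platform annotation does not list 8730 of the 22746 probe sets. A gene without a named probe set may thus still be on the array. The list of nuclear photosynthesis genes, taken by symbol, held 85 loci, of which 15 had a probe set assigned to them alone, so it covers a small part of these genes. Of the 15, 0 rose and 1 fell, against 7.63% and 8.01% of all probe sets, with a median of −0.11. The gene that fell was LHCB4.3, for a minor light-harvesting protein of photosystem II (−0.60, SE 0.10, adjusted p = 0.0165). It did not pass without css1 replicate 1 (−0.53, adjusted p = 0.109) or css1 replicate 2 (−0.67, adjusted p = 0.0850). The other members with the smallest p were the NDH subunit genes NdhL (−0.34, adjusted p = 0.0549) and NdhN (−0.38, adjusted p = 0.0710), and ATPC1, for the gamma subunit of ATP synthase (−0.23, adjusted p = 0.126). None of these 3 passed, although NdhL did so with the filter, with a trend in the spread and with a second quantile normalization. Whether plastid and nuclear genes differed in their response was not tested.

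Nuclear genes that act on plastid RNA were measured in part. Of 21 loci listed for the processing, stability or translation of plastid transcripts, 5 had a probe set. Where 15.6% of all probe sets passed in limma and 31.7% had an unadjusted p under 0.05, 0 and 1 of these 5 genes did. They included ATAB2, which acts in translation of photosystem I and II transcripts (−0.30, adjusted p = 0.126), CRP1, a pentatricopeptide repeat gene known in maize for petA and psaC translation (−0.20, adjusted p = 0.185), LPA66, an editing factor of psbF (0.16, adjusted p = 0.296), and CP33B, for a plastid RNA-binding protein (0.19, adjusted p = 0.177). Of 23 loci for plastid transcription, 1 was measured, RPOTMP, for a phage-type polymerase of mitochondria and plastids (0.15, adjusted p = 0.3002), and the sigma factors are not analysed here.

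Root and shoot make up a whole seedling, and of 13 root markers 3 were measured. The log2 of their summed signal was 12.65 to 12.76 in css1 and 12.23 to 12.26 in WT, and the mean signal of all 3 lay above 4.73, the 30th percentile of all probe sets. The sum was led by PYK10, a glucosidase of root ER bodies, which rose (0.50, adjusted p = 0.0199). It did not pass once css1 replicate 1 was left out (adjusted p = 0.132), nor without css1 replicate 2 (adjusted p = 0.101) or WT replicate 2 (adjusted p = 0.0574). The root hair expansin genes EXPA18 (−0.51, adjusted p = 0.0858) and EXPA7 (−0.33, adjusted p = 0.123) did not pass and had the other sign. The log2 of the summed signal of the 15 nuclear photosynthesis genes, which mark green tissue, was 15.98 to 16.02 in css1 and 15.97 to 16.27 in WT, so the genotypes overlapped. The part of tissue proportions in the plastid differences was not tested.

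**Figure D5:**
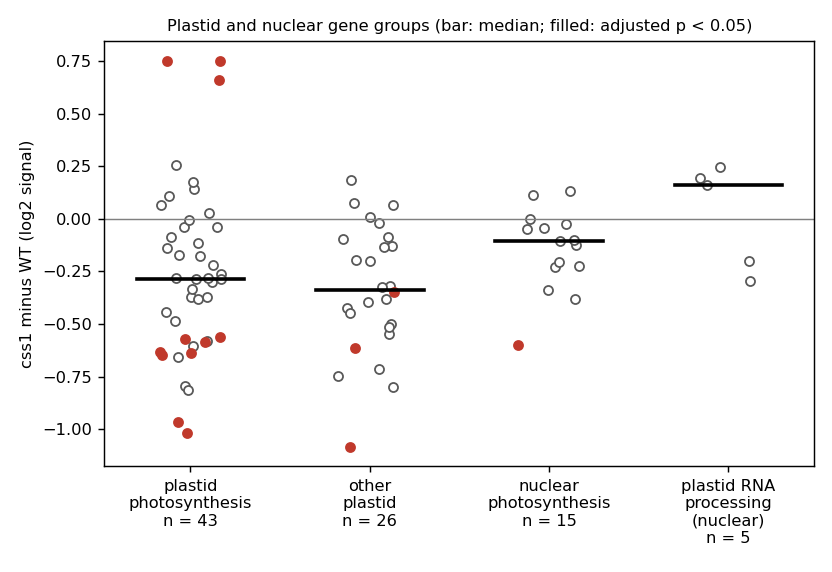
Difference between css1 and WT in log2 signal (vertical axis) for single genes (points) of the plastid photosynthesis group, the other plastid genes, nuclear photosynthesis genes and nuclear genes of plastid RNA processing, with the median of each as a bar; filled points passed. The medians are −0.28, −0.34, −0.11 and 0.16, and the 3 points above 0.6 are psbI, psbK and atpA.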

How the data were processed

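Total RNA of 4 seedling samples (2 css1, 2 WT) was labelled from 250 ng per sample and hybridised to 1-colour Affymetrix arrays, per the labels' protocols. The deposited values are log2 signals per probe set, and the submitters' processing notes name RMA as the authors' method. Its version was not stated there, and the main comparison used the values without rescaling.

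Of 22810 probe sets, 64 controls were set aside. Gene names came from the platform annotation, which gives 1 gene for 13513 probe sets and several for 503 and does not list 8730. The 43 members matched RefSeq plastid genes (TAIR10.1) by gene ID. Gene start positions from this annotation were used only to order the plastid genes, and no sequences are used here. css1 was compared with WT in limma 3.58.1 (R 4.3.3; lmFit, eBayes, two-sided, genotype as the only term). Errors are limma standard errors. Precision is limited by having 2 arrays per genotype.

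Members and lists were chosen with earlier results of these data known. All members could be named. Values on every array were given for members that passed and for the 2 highest and 2 lowest differences of each complex, and the up to 4 members of each nuclear list with the smallest p were named. Other genes shown by array were chosen after their values were seen. From the symbol list, 5 loci were dropped since only their letters matched. The alternatives were leaving out each array, blocking on the replicate number, weighting the arrays, centring them on their medians, normalizing quantiles again, a trended or robust eBayes, dropping probe sets whose mean was under the 30th percentile, and a stricter adjusted p of 0.01.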

Additional observations from a re-analysis of the deposited data

How the results depend on the processing

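With array weights, a robust or trended spread or the filter, which left 39 of the 43 genes, the same 11 genes passed. Median centring and a second quantile normalization each left 3 higher and 7 lower, without ndhG. At an adjusted p under 0.01, 1 gene was higher and 1 lower, with 773 of all probe sets. Leaving out 1 array gave 0 to 1 higher and 0 to 6 lower genes, 560 to 3079 of all probe sets and a median of −0.46 to −0.13. Genes that passed only in such a setting were ndhE and psbT without css1 replicate 1 and psaC without WT replicate 1. The replicate number as a block gave 1 higher and 7 lower genes and 1264 of all probe sets: atpF and atpH passed, and psbK, atpA, psbD, psbE and psbF did not. Deviations of same-numbered arrays correlated at −0.0061 over all probe sets, so the numbers are not shown to pair the samples. Over the 43 genes, which share libraries and gene clusters, the gaps between replicates 1 and 2 in css1 and WT had a Pearson r of 0.69.

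Of the listed nuclear genes, root markers included, 1 was higher and 1 lower. With 1 array left out these counts were 0 to 1 and 0 to 2, with the block or an adjusted p under 0.01 both were 0, and with the filter, trend or second quantile normalization 2 were lower.

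No gene that passed changed sign, and 16 of the others did. For the genes that passed this was fixed in most settings. Their genotypes did not overlap, and the filter, the spread options, the weights and the block left the differences as they were. With median centring, atpE was at 0.0020, psbJ at 0.034 and ndhF at 0.0023, and with a second quantile normalization atpE was at 0.073. With 1 array left out the differences ranged from −0.72 to 0.12 for atpI, −0.13 to 0.18 for psaA, −0.61 to 0.047 for petA, −0.19 to 0.17 for psbJ, −0.36 to 0.72 for petL, −0.79 to 1.31 for petG, −0.052 to 0.27 for psaJ, −0.74 to 0.17 for psbB, −1.01 to 0.27 for psbT, −0.94 to 0.054 for psbN, −0.80 to 0.034 for psbH, −0.23 to 0.0053 for petD, −0.14 to 0.064 for ndhF, −0.14 to 0.27 for ndhD and −0.49 to 0.050 for ndhA. The causes of these shifts were not tested beyond the lone array left in a genotype.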

Other observations

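The other 26 measured plastid genes, for the plastid gene expression machinery and single enzymes, were 0 higher and 3 lower in css1 by limma. Of these 26 genes 11.5% thus passed, against 15.6% of all probe sets. Their median difference was −0.34, against −0.03 over all probe sets. Below 0 lay 22 of the 26 differences, as did 55.1% of all differences. The genes that fell were accD, for the plastid-encoded subunit of acetyl-CoA carboxylase, with 5.52 and 4.89 in css1, against 6.41 and 6.17 in WT (−1.08, SE 0.22, adjusted p = 0.0269), the ribosomal protein gene rpl36 (−0.62, SE 0.12, adjusted p = 0.0261) and clpP, for a protease subunit (−0.35, SE 0.09, adjusted p = 0.0466). These genes were named after their values were seen. The genes of the plastid polymerase core, rpoA, rpoB, rpoC1 and rpoC2, had differences of −0.39, −0.42, −0.38 and −0.20 (adjusted p = 0.0782 to 0.417), with rpoB at a low signal of 3.48 and 3.48 in css1, against 3.73 and 4.07 in WT. The gene matK, for the plastid intron maturase, was at 0.08 (adjusted p = 0.746).

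A point to follow up is the run of psbK, psbI and atpA, the 3 measured plastid genes that passed as higher among all 69. They lie next to atpF, atpH and atpI, with differences of −0.79 to −0.30. With the replicate number as a block, psbK and atpA did not pass. Whether the 3 genes share a transcript was not tested.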
